A study of Mus musculus with 6 samples.

Results

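The microRNA miR-33 is made from a hairpin inside an intron of Srebf2, and its 2 mature arms, miR-33-5p and miR-33-3p, were measured in the prefrontal cortex of aged mice by small RNA sequencing. These arms, listed as mmu-miR-33-5p and mmu-miR-33-3p, are 2 of the 1189 entries listed for each mouse, and they were selected by name with their PND against CON values already known. For that reason the difference between the groups is given below as a description, without a test. In the PND group miR-33-5p averaged 4.81 CPM (reads per 1000000 reads on all listed entries) and in the CON group 2.68 CPM, and miR-33-3p averaged 2.51 and 1.11 CPM. The 5p arm was the more abundant arm in 6 of 6 mice, with about 2.06 reads for each read of the 3p arm.

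The study asked which RNAs differ in the cortex of mice with postoperative neurocognitive disorder, a decline in memory and cognition that follows anesthesia and surgery. Both groups were male wild type C57BL/6 mice, aged 18 months by the sample descriptions and the study's methods, while the sample titles carry 17M. The 3 PND mice breathed 1.5% isoflurane for 30 minutes and then had an abdominal exploration under the same anesthetic, with lidocaine cream and povidone iodine on the wound afterwards. The 3 CON mice had neither anesthesia nor operation, so the effects of the anesthetic, of the surgery and of the wound care cannot be told apart. Mice of both groups went through behavioural tests and were killed under isoflurane after the last of them. One library was made per mouse from whole tissue, in which more RNA per cell and more cells of a type cannot be told apart.

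Srebf2 encodes SREBP-2, the transcription factor that turns on cholesterol synthesis and the LDL receptor when sterols are low. miR-33-5p is best known for repressing Abca1, the transporter that loads cellular cholesterol onto apolipoproteins, and it also targets genes of fatty acid oxidation. The host gene and its intronic miRNA are therefore known as a pair that acts on cholesterol supply from both sides. In the brain cholesterol is made locally, and ABCA1 passes it to apolipoprotein E released by glia. A miRNA finds its targets mainly through its seed, bases 2 to 8 from the 5′ end.

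In GRCm38 the Mir33 hairpin lies at chr15:82198122-82198190 on the plus strand, the strand of Srebf2 (chr15:82147181-82205379). It sits in intron 16 of the 19-exon transcript Srebf2-201, an intron of 1848 bases, 335 bases after the upstream exon and 1444 bases before the downstream one. Of 7 annotated Srebf2 transcripts, 3 carry the hairpin in an intron and 0 have an exon that overlaps it. The hairpin of 69 bases is shown because both measured arms are cut from it, and the capitals mark the 5p arm and then the 3p arm. The mature arms follow with their seeds in capitals, all as RefSeq gives them for GRCm38.p6.
Mir33 hairpin: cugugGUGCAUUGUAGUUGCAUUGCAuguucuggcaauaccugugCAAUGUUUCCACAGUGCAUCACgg
miR-33-5p, chr15:82198127-82198147: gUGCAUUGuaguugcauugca
miR-33-3p, chr15:82198167-82198188: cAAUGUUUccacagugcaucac

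A minimum free energy fold of the hairpin at -32.2 kcal/mol had 27 base pairs, 16 of them between the 2 arms. The 21 bases of miR-33-5p hold the seed letters UGCAUUG at 2 places, bases 2 to 8 and bases 13 to 19, and both copies are in capitals in the line that follows.
miR-33-5p, both copies: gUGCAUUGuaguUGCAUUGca
Such a second copy of the own seed was found in 4 of the 997 listed miRNAs whose mature sequence could be matched in RefSeq, or 0.401%. The seed of miR-33-5p was found in 0 other matched miRNAs, and the same held for the seed of miR-33-3p. One listed miRNA shared bases 2 to 7 with miR-33-3p, the miR-409-3p of the imprinted Dlk1-Dio3 cluster, shown here with its bases 2 to 8 in capitals.
miR-409-3p: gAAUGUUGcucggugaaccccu
At a mean of 1015 CPM, miR-409-3p was 561 times as abundant as miR-33-3p. Its mean was 1038 ± 99.7 CPM for PND and 992 ± 52.1 CPM for CON mice (SD, n = 3 each), within each other's spread.

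Reads of miR-33-5p numbered 74, 82 and 106 in PND mice 1 to 3 and 39, 25 and 61 in CON mice 1 to 3. In CPM these were 3.80, 4.66 and 5.98 for PND and 2.55, 1.68 and 3.79 for CON. The lowest PND mouse (mouse 1) and the highest CON mouse (mouse 3) were 0.0102 CPM apart, so the groups touched without overlapping. By counting error alone, PND mouse 1 had an exact 95% interval of 2.98 to 4.77 CPM and CON mouse 3 had 2.90 to 4.87 CPM. These 2 mice could therefore not be ordered at this depth. CON mouse 2, with 1.09 to 2.49 CPM, lay below the intervals of all 3 PND mice, and PND mouse 3, with 4.90 to 7.24 CPM, lay above those of all 3 CON mice.

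The group means of miR-33-5p were 4.81 ± 1.10 CPM for PND and 2.68 ± 1.06 CPM for CON (SD, n = 3 each), a ratio of 1.80. On the log2(CPM + 1) scale, on which changes of low miRNAs come out smaller than their ratio, the difference PND minus CON was 0.68 with a standard error of 0.26. The spread between mice of a group, 22.9% of the mean in PND and 39.6% in CON, was larger than the 10.7% and 15.5% that read counting alone would give.

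miR-33-3p had 33, 36 and 67 reads in PND mice 1 to 3 and 19, 9 and 24 reads in CON mice 1 to 3. Its levels were 1.69, 2.05 and 3.78 CPM for PND and 1.24, 0.606 and 1.49 CPM for CON. As for the other arm, PND mouse 3 was highest, CON mouse 2 was lowest, and PND mouse 1 stood next to CON mouse 3. The gap between those neighbours was 0.204 CPM. Means were 2.51 ± 1.12 CPM for PND and 1.11 ± 0.457 CPM for CON (SD, n = 3 each), a ratio of 2.25, and the difference on the log2(CPM + 1) scale was 0.71 with a standard error of 0.27. All 12 values of the arms were above the level of 3 reads, which was 0.154 to 0.202 CPM in these libraries.

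**Figure D1:**
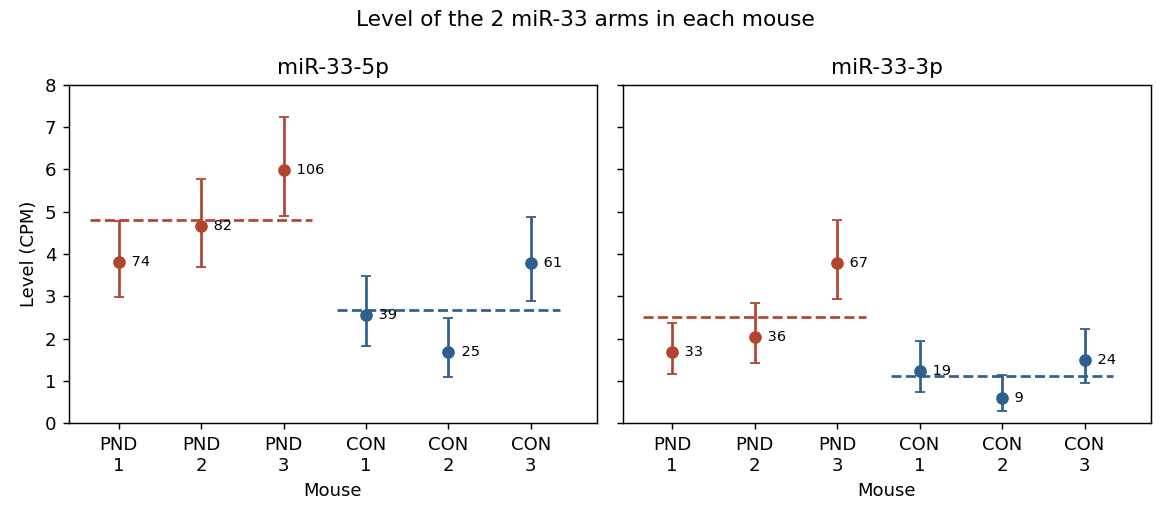
Level of miR-33-5p (left) and miR-33-3p (right) in CPM for each of the 3 PND mice (red) and 3 CON mice (blue), with exact 95% counting intervals as bars, group means as dashed lines and the read number beside each point. In both panels PND mouse 3 is highest, CON mouse 2 is lowest, and PND mouse 1 and CON mouse 3 have overlapping intervals.

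Summed over both arms, the hairpin gave 5.50, 6.70 and 9.77 CPM in PND mice 1 to 3 and 3.80, 2.29 and 5.28 CPM in CON mice 1 to 3. The mean was 7.32 ± 2.20 CPM for PND and 3.79 ± 1.50 CPM for CON (SD, n = 3 each). The log2(CPM + 1) difference of the sum was 0.81. Leaving out single mice gave 0.57 (without CON mouse 2) to 1.03 (without CON mouse 3), with 0.61 without PND mouse 3 and 0.98 without PND mouse 1.

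Against the whole table the members were read as follows. At an adjusted p under 0.05 limma called 5 of 1189 entries, or 0.421%, and 0 of the 2 arms were among them. In the same fit 0 of the 578 entries with a mean of at least 1 CPM were called. All 5 thus had a mean below 1 CPM, while both arms were above it. By the limits of an unadjusted p under 0.05 and a log2 difference above 1, 1 entry was higher in PND, or 0.0841%, again with 0 of the 2 arms. This count rests on the pseudocount of 1. With a pseudocount of 0.1 it was 17 (1.43%), with edgeR 15 (1.26%) and with DESeq2 8 (0.673%). The log2 differences of miR-33-3p in these 3 settings were 1.10, 1.04 and 1.03, above the limit of 1. All 3 PND mice lay above all 3 CON mice in 94 entries, or 7.91%, and in 54 of the 578 entries with a mean of at least 1 CPM, or 9.34%, and both arms were among these. As the same contrast was known when the arms were selected, nothing is read from whether the arms met any of these limits. The difference of miR-33-3p ranked 14 and that of miR-33-5p ranked 20 of 1189 by size toward PND.

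**Figure D2:**
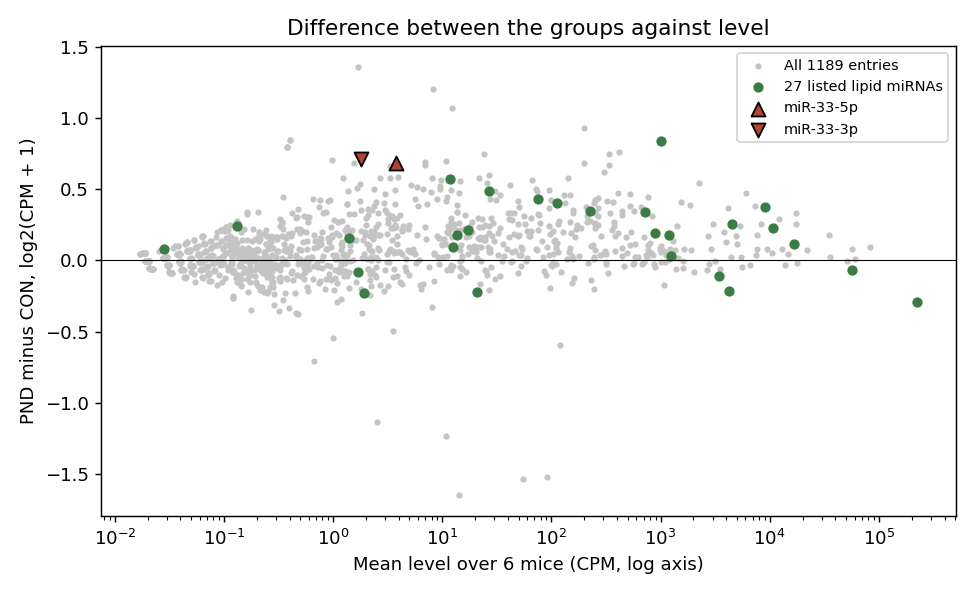
Difference PND minus CON in log2(CPM + 1) (vertical axis) against the mean level over 6 mice in CPM (horizontal log axis) for 1189 entries in grey, 27 lipid miRNAs in green and the miR-33 arms as red triangles. The arms, at 0.68 and 0.71, lie near the upper edge of the entries of their level.

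How far the groups lay apart depended on the scaling. The median difference of the 578 entries with at least 1 CPM was 0.12 as deposited, toward PND, and 0.05 without miR-128-3p in the total. With TMM factors it was 0.02 and with DESeq2 size factors -0.01, but these factors bring the typical difference near 0 by construction. Relative to the median of each scaling, the difference of miR-33-5p was 0.56 to 0.60 and that of miR-33-3p was 0.59 to 0.67 in the 4 scalings tried. The upper ends came without miR-128-3p in the total, where all values are higher beside the added 1. With TMM factors the groups overlapped for miR-33-5p, as PND mouse 1 was at 3.80 and CON mouse 3 at 3.82, and with DESeq2 size factors they were at 3.74 and 3.81. Without miR-128-3p in the total the groups did not overlap, at 4.95 and 4.83. For miR-33-3p the groups did not overlap in any of the 4 scalings.

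Leaving out single mice moved the differences both ways. For miR-33-5p the log2 difference of 0.68 became 0.48 without CON mouse 2 and 0.54 without PND mouse 3, but 0.81 without PND mouse 1 and 0.90 without CON mouse 3. For miR-33-3p the difference of 0.71 became 0.46 without PND mouse 3 and 0.52 without CON mouse 2, but 0.84 without CON mouse 3 and 0.88 without PND mouse 1. The highest and the lowest mouse of the miR-33 arms were also at the ends of many other profiles. Of 569 named miRNAs with at least 1 CPM, 221 (38.8%) were highest in PND mouse 3 and 344 (60.5%) were lowest in CON mouse 2. Both held for 187 (32.9%), the miR-33 arms included. The library of CON mouse 2 had the fewest reads, 14849461, and the largest share of miR-128-3p, 29.2% of its reads, while PND mouse 3 had the smallest such share, 17.6%. In all, PND libraries held 17600766 to 19471226 reads and CON libraries 14849461 to 16093467, without overlap, and the part of depth and of the miR-128-3p share in the miR-33 difference was not tested beyond these scalings.

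**Figure D3:**
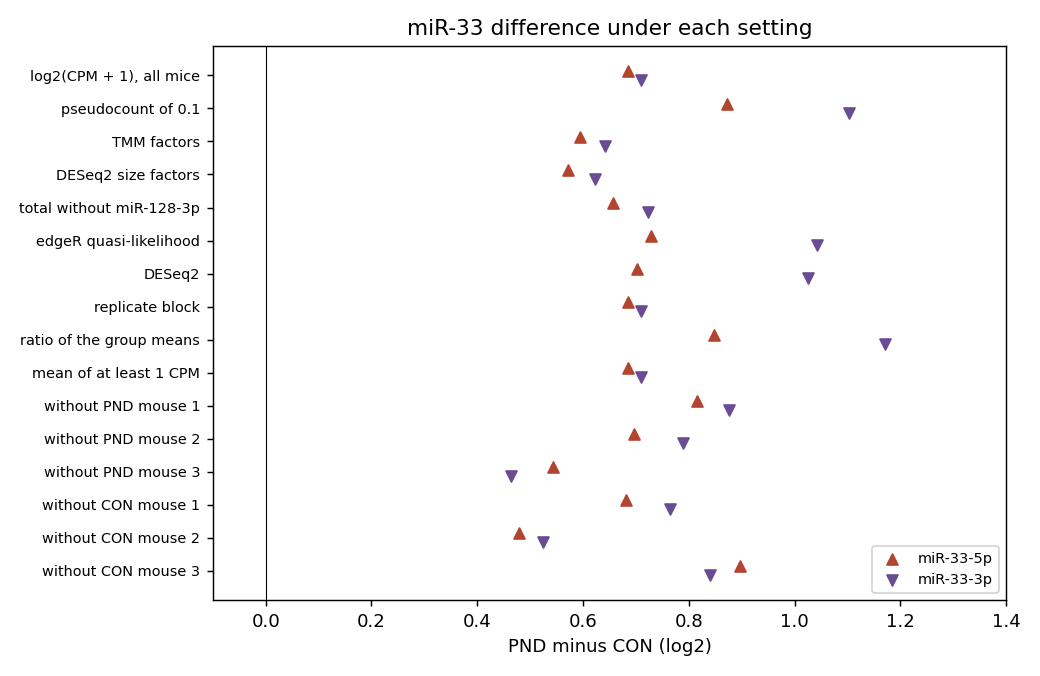
Difference PND minus CON (log2, horizontal axis) of miR-33-5p (red) and miR-33-3p (purple) under each setting (rows), from the deposited values through other pseudocounts, scalings and count models to the leaving out of single mice. The lowest points are 0.48 for miR-33-5p without CON mouse 2 and 0.46 for miR-33-3p without PND mouse 3. Every point lies above 0, which leaving out mice or another pseudocount could not change.

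The arm ratio does not depend on library size, since both arms are read in the same library. The share of miR-33-5p among the reads of both arms was 69.2%, 69.5% and 61.3% in PND mice 1 to 3 and 67.2%, 73.5% and 71.8% in CON mice 1 to 3. The exact 95% intervals were widest for CON mouse 2, with 34 reads, at 55.6 to 87.1%, and narrowest for PND mouse 3, with 173 reads, at 53.6 to 68.6%. All 6 intervals overlapped. Over the 6 mice the share was 68.7% ± 4.26 (SD, n = 6), and the 387 of 575 summed reads gave 67.3%, with an interval of 63.3 to 71.1%. The shares varied between mice by as much as counting gives (chi-square over its degrees of freedom 0.930).

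Between the groups the share was 66.6% ± 4.65 in PND and 70.8% ± 3.24 in CON (SD, n = 3 each). The difference of -4.20 percentage points was close to the pooled SD of 4.01, and without PND mouse 3 it was -1.52, while leaving out CON mouse 2 gave -2.86. The ranges of the groups overlapped. The more abundant strand of a hairpin is usually kept by Argonaute while its partner is degraded, and most hairpins here were one-sided. Of 279 hairpins with both arms listed and at least 100 reads in all, 184 (65.9%) had a main arm with over 90% of the reads, and the median main-arm share was 96.6%. Only 30 hairpins (10.8%) were less one-sided than miR-33.

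In 135 of these hairpins the 5p arm was the main arm, in 119 the 5p share was above that of miR-33 and in 159 it was below. The nearest below were miR-216a at 67.9% ± 6.62 and miR-7220 at 67.0% ± 11.1, and the nearest above were miR-425 at 69.8% ± 1.66 and miR-338 at 70.2% ± 4.10 (SD, n = 6 each). These 4 differed from miR-33 by less than its own spread between mice. miR-338 is known from oligodendrocytes, the myelin-forming glia.

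**Figure D4:**
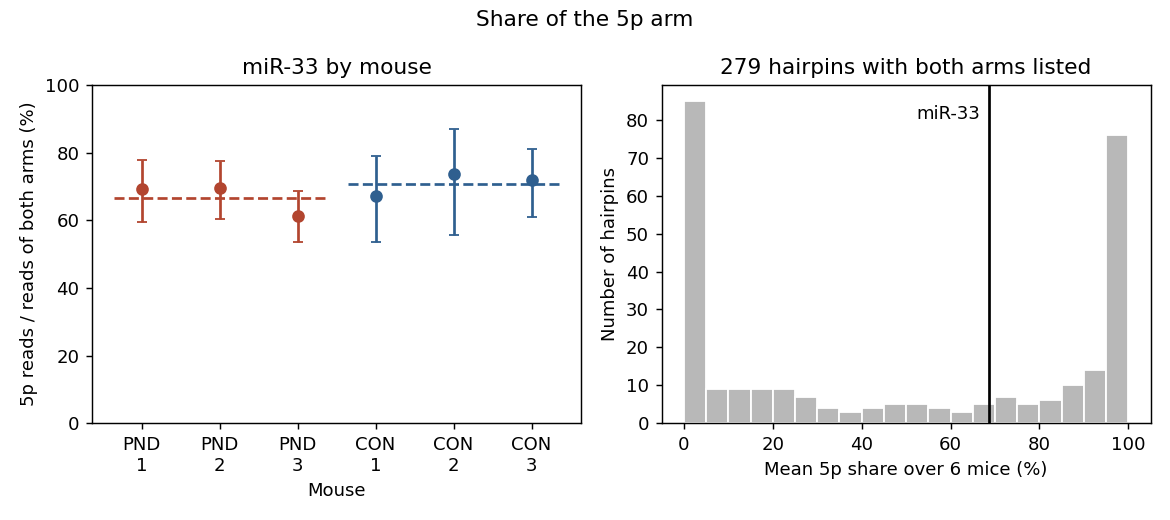
Share of 5p reads among the reads of both miR-33 arms (%) in each mouse, with exact 95% intervals and dashed group means (left, PND red, CON blue), and the number of hairpins by mean 5p share over 6 mice (right, 279 hairpins in 5% bins). The shares of miR-33 lie between 61.3 and 73.5%, and the line at 68.7% falls in the thinly filled middle between the peaks at either end.

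Both arms were of low abundance in this tissue. With a mean of 3.75 CPM over 6 mice, miR-33-5p ranked 423 of 1189, and miR-33-3p, at 1.81 CPM, ranked 511. Within single mice the rank of miR-33-5p ran from 394 to 481 and that of miR-33-3p from 432 to 602. The most abundant entry, the neuronal miR-128-3p, was 59360 times as abundant as miR-33-5p. Just above miR-33-5p stood miR-188-5p at 3.75 CPM and miR-7226-3p at 3.84 CPM, and just below stood miR-345-5p at 3.69 CPM and miR-98-3p at 3.68 CPM. None of these 4 differed from it beyond the spread over mice, and miR-33-5p was the higher one in 3 or 4 of 6 mice against each.

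Over the 6 mice the arms followed each other, with a Pearson r of 0.96 on log2(CPM + 1), and 0.90 for deviations from the group means. They had the same order of all 6 mice, an order that 13 of 569 miRNAs had, the arms included. As the arms come from 1 hairpin and share libraries and depth, these values are a description. Among 568 named miRNAs with at least 1 CPM, miR-33-3p was 11th in likeness to miR-33-5p.

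The 5 miRNAs most like miR-33-5p were miR-127-3p (r = 0.99), miR-145a-5p (0.98), miR-30a-5p (0.97), miR-181a-1-3p (0.97) and miR-192-5p (0.97). An r above 0.9 was common, as 66 miRNAs (11.6%) had one, and the median r of all 568 was 0.58, or 0.22 when miR-128-3p was left out of the total. With TMM factors the r of miR-127-3p was 0.60, while the other 4 stayed at 0.93 to 0.97. miR-127-3p comes from the imprinted Dlk1-Dio3 region, and miR-145a-5p is known from smooth muscle and pericytes. Of these 5, miR-30a-5p came closest to miR-33-5p in the size of the group difference. It measured 5705, 6650 and 8621 CPM in PND mice 1 to 3 and 5229, 3614 and 6465 CPM in CON mice 1 to 3, so its groups overlapped, and its log2 difference was 0.47. The log2 differences of the other 4 were 0.18 for miR-127-3p, 0.34 for miR-145a-5p, 0.31 for miR-181a-1-3p and 0.26 for miR-192-5p, each smaller than that of miR-33-5p.

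The least like miR-33-5p were miR-128-2-5p (r = -0.96) and miR-128-3p (r = -0.94), both from the miR-128 genes. In CPM miR-128-3p averaged 199530 ± 29289 for PND and 245091 ± 41340 for CON (SD, n = 3 each). Since miR-128-3p makes up such a part of each library's total, a high value of it lowers the CPM of all others by construction. With miR-128-3p taken out of the total, the r of miR-128-2-5p was -0.96 and that of miR-128-3p was -0.93. With TMM factors they were -0.93 and -0.88. Without miR-128-3p in the total the log2 difference of miR-33-5p was 0.66, while the median r of all 568 miRNAs fell from 0.58 to 0.22. Taking it out also raised all values, for miR-33-5p in PND mouse 1 from 3.80 to 4.95, while the added 1 stayed. The 0.66 is therefore not on the same scale as the 0.68 of the deposited values.

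**Figure D5:**
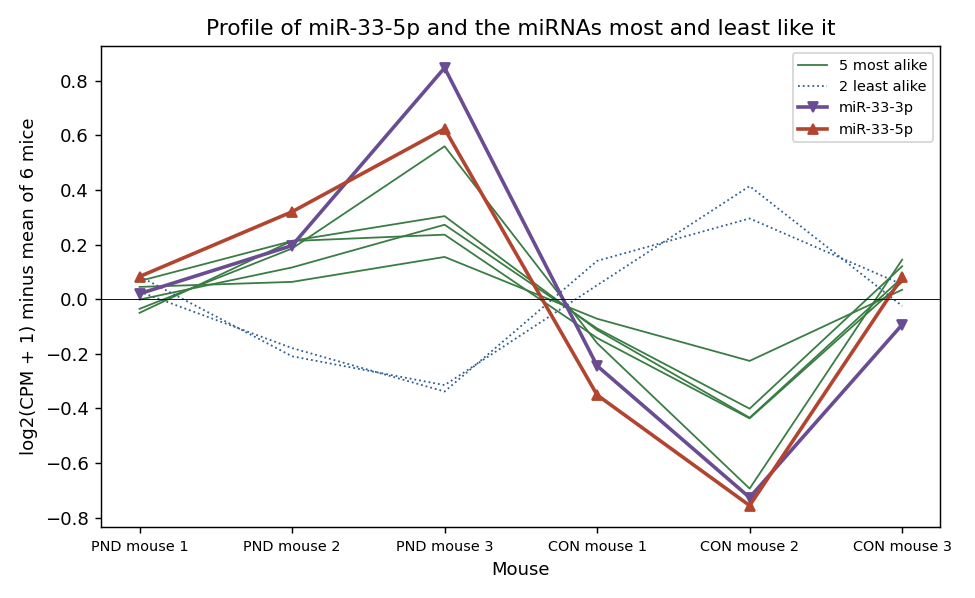
Level of miR-33-5p (red), miR-33-3p (purple), the 5 miRNAs most like miR-33-5p (green) and the 2 least like it (dotted blue) in each mouse, as log2(CPM + 1) minus the mean of 6 mice. The miR-33 arms and the green lines are highest at PND mouse 3 and lowest at CON mouse 2, and the dotted lines have the opposite extremes.

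Other miRNAs known to act on cholesterol and lipid handling were compared as a group, 28 miRNAs of which 27 were listed and 25 had at least 1 CPM. At an adjusted p under 0.05, limma, edgeR and DESeq2 each called 0 of the 27. At an unadjusted p under 0.05 limma had 3 of 27 (11.1%), all higher in PND, beside 4.04% of all entries, and these were miR-20a-5p, miR-34a-5p and miR-145a-5p. edgeR and DESeq2 had 2 of 27 (7.41%) each, both lower in PND, beside 1.85% and 0.673% of all entries, and these were miR-125a-5p and miR-128-3p in either tool. The direction of these counts thus differed between tools that also differ in scaling. edgeR and DESeq2 rescale the libraries, while limma was run on the deposited CPM. On values scaled with DESeq2 size factors limma had 1 of 27. Among the miRNAs named here, miR-20a-5p was named after its values were seen. The groups did not overlap for 3 of 27 (11.1%, higher in PND in each), beside 7.91% of all entries and 9.34% of those with at least 1 CPM. The median log2 difference of the 27 was 0.18, beside 0.05 for all entries and 0.12 for those with at least 1 CPM. With TMM factors the median was 0.07, with 0 of 27 at an unadjusted p under 0.05.

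By target, the 13 listed miRNAs known to repress Abca1 or cholesterol efflux, the function shared with miR-33-5p, had a median log2 difference of 0.24. That median is the value of the red cell miR-144-3p, which was near 0. It measured 0.668, 0 and 0.0565 CPM in PND mice 1 to 3 and 0.0654, 0 and 0 CPM in CON mice 1 to 3. For the 6 that act on the LDL receptor, the clearance receptor for LDL particles, it was 0.09. For the 4 that act on SR-BI, the HDL receptor, it was -0.22, and for the 8 of liver lipid and fatty acid metabolism it was 0.18. The SR-BI median lies between the values of miR-125a-5p and miR-96-5p. The difference of miR-96-5p had a standard error of 1.01, with 75.5, 1.89 and 12.9 CPM in CON mice 1 to 3. Over all lists the smallest p belonged to miR-34a-5p, a p53-induced miRNA that targets Sirt1. It averaged 129 ± 20.8 CPM for PND and 97.0 ± 8.19 CPM for CON (SD, n = 3 each). PND mouse 1, at 105 CPM, lay below CON mouse 3, at 106 CPM, so the groups overlapped, with a log2 difference of 0.40 (SE 0.15, limma adjusted p = 0.77).

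The most abundant entry of the Abca1 list and of the LDL receptor list was miR-128-3p, with a log2 difference of -0.29 (SE 0.14, limma adjusted p = 0.77). Of the SR-BI list it was miR-125a-5p at 3907 ± 488 CPM in PND and 4543 ± 667 CPM in CON, and of the liver list miR-30c-5p at 17456 ± 1321 CPM and 16131 ± 1438 CPM (SD, n = 3 each). Neither passed the test, each with a limma adjusted p of 0.77.

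The tissue label was checked against 26 cell type markers, all listed. The summed level of 4 neuronal miRNAs (highest miR-128-3p) was 279250 to 314047 CPM in PND and 306166 to 370685 CPM in CON mice. miR-128-3p set the direction of that sum, as the log2 differences of the other 3 were 0.24 for miR-124-3p, 0.09 for miR-9-5p and 0.32 for miR-138-5p, none of which passed the test. The sums of 3 oligodendrocyte markers (highest miR-219a-2-3p) were 1575 to 1765 and 1384 to 1607 CPM. For 2 endothelial markers (highest miR-126a-3p) they were 13326 to 13992 and 11991 to 14372 CPM. The tissue thus showed the markers of brain in every mouse.

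Markers of other tissues stood apart in single mice. The 5 epithelial markers (highest miR-200a-3p) summed to 861 CPM in CON mouse 1 and to 27.3 to 36.7 CPM in the others, and the 3 red cell markers (highest miR-451a) to 43.2 CPM in PND mouse 1 and 0.621 to 3.40 CPM in the others. In those libraries miR-33-5p was 2.55 and 3.80 CPM, the middle value of the CON group and the lowest of the PND group. Without CON mouse 1 the log2 difference of miR-33-5p was 0.68 and without PND mouse 1 it was 0.81.

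The sums of a pair of lists had the same extremes as miR-33, PND mouse 3 highest and CON mouse 2 lowest, each through its most abundant marker. The 2 myeloid markers (highest miR-142a-3p) summed to 9.60 to 19.0 CPM in PND and 6.67 to 14.2 CPM in CON mice, and the 2 liver markers (highest miR-192-5p) to 260.3 to 310 CPM and 198 to 279 CPM. The other marker of each list went another way. The myeloid miR-223-3p was highest in CON mouse 2, at 2.42 CPM, and lowest in PND mouse 1, at 1.44 CPM, and the liver miR-122-5p was highest in PND mouse 1, at 14.1 CPM, and lowest in CON mouse 3, at 11.1 CPM. Muscle markers (3, highest miR-1a-3p) ran from 502 to 601 CPM in PND and 413 to 593 CPM in CON mice. Choroid plexus markers (2, highest miR-204-5p) ran from 764 to 795 CPM and 585 to 926 CPM. At 0 in at least 1 mouse were 3 of the 26 markers, the epithelial miR-141-3p and the red cell miR-144-3p and miR-144-5p. limma called 0 of the 26 at an adjusted p under 0.05, and the part of these cell types in the miR-33 levels was not tested.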

How the data were processed

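Small RNA libraries of the prefrontal cortex of 3 PND and 3 CON mice were analysed, grouped by the treatment given in the labels. The authors deposited 1 value per entry and mouse in CPM, which the study calls TPM. According to its methods, reads were filtered with fastx, size selected, aligned with Bowtie and assigned to miRBase positions, and TMM and total-read scaling followed. The deposited values of each mouse summed to 999998 to 999999 CPM, so no TMM factor remained in them. The submitters' processing notes name Bowtie 0.12.2 and the builds mm8 and mm9, with no role given. How reads that match several places were counted is not given in the sources used here. The methods and the labels name different library kits.

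All values (100%) in each library equalled a whole number of reads within 0.1 read, so reads were recovered, 14849461 to 19471226 per library. Intervals are exact Clopper-Pearson intervals at 95% and cover counting error only, since reads are not independent molecules. No 2 libraries of the same group agreed within counting noise. The members and lists were chosen with earlier results of these data known. Differences, standard errors and calls came from limma 3.58.1 with trend, run in R 4.3.3 over the log2(CPM + 1) values of the 1189 entries, with no filter and no covariate, and Benjamini-Hochberg adjustment over all entries. edgeR 4.0.16 (quasi-likelihood) and DESeq2 1.42.0 on the recovered reads were alternatives, beside other scalings and the leaving out of each mouse. The fits were tested on simulated data.

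Sequences are RefSeq's for GRCm38.p6, matched by name for 997 of 1156 named entries (86.2%), and exon positions are GENCODE's for GRCm38. The hairpin was folded with RNAfold 2.7.2. Named were the 2 arms, the most abundant entry of each list and the smallest p over the lipid lists, the 5 most and 2 least alike miRNAs, the 2 nearest hairpins in arm share on either side, miRNAs that share a seed and the 2 neighbours in level on either side. Srebf2 mRNA was not analysed here.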

Additional observations from a re-analysis of the deposited data

How the results depend on the processing

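The miR-33 difference was higher in PND for both arms in all 15 alternatives, and for the arm sum in its 7 (0.57 to 1.03). Most of these could not have turned the direction. In CPM all PND mice lay above all CON mice for both arms and for the sum. Leaving out mice, another pseudocount or the ratio of the group means therefore keeps the direction by construction, which covers all 7 of the sum. The replicate block and the limit of 1 CPM are among the 15 but cannot change an arm's own difference. Only the other scalings and the count models could have turned the direction of an arm. For miR-33-5p the log2 difference was 0.48 to 0.90, and leaving out single mice gave both ends. For miR-33-3p it was 0.46 to 1.17. It moved by more than the spread between mice with a pseudocount of 0.1, to 1.10, and as the ratio of the group means, to 1.17, neither of which adds 1 CPM to the values. Leaving out single mice gave 0.46 to 0.88. The 5p share was 67.3 to 70.2%, its group difference -6.01 to -1.52 points, and the rank of miR-33-5p 414 to 437. Whether the groups overlap for miR-33-5p changed with TMM and DESeq2 size factors, which were tried for this after the data were seen.

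Same-numbered mice deviated from their group means with r of -0.13, 0.12 and 0.51 over 361 miRNAs, so the numbers were not taken to pair the mice, and not every mouse was most like its own number. With a replicate block the log2 differences were 0.68 and 0.71, which a balanced block cannot change, and limma called 0 entries in place of 5. The 5 calls were also lost without trend (0), and leaving out single mice gave 0 to 3. Why these settings lost calls was not tested. With a mean of at least 1 CPM 0 were called, as the 5 entries lay below that limit and were not in that fit. Of the lipid miRNAs 0 were called in any of the 13 alternatives. Entries higher in every PND mouse numbered 64 with TMM factors, in place of 94 of 1189 (7.91%). With at least 1 CPM they were 54 of 578 (9.34%), so that limit lowered the count but not the share.

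Depth limits these arms to 9 to 106 reads per mouse, and 3 mice a group limit every comparison.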
